A study of Homo sapiens with 2 samples.

Results

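The DUSP, SPRY and SPRED genes encode inhibitors that feed back on the MAP kinase cascade, and 10 of them were described here: DUSP1, DUSP2, DUSP4, DUSP5, DUSP6, DUSP7, SPRY2, SPRY4, SPRED1 and SPRED2. They were taken by symbol from the platform's probe annotation, with all 15 of their probes, out of 20046 genes that had a probe. Expression was measured in SK-ES1, an established line of Ewing sarcoma, a tumour driven by the EWSR1-FLI1 fusion transcription factor. Total RNA of radiation-adapted SK-ES1 cells, whose label carries the value 4 Gy with no schedule, and of wild type SK-ES1 cells was hybridised to Illumina expression BeadChips. Each line was 1 array, so no difference below has a replicate check or a test, and the line cannot be told apart from its culture, its RNA extraction or its array. The series' title presents the adapted line as a preclinical model, and the comparison asks how its expression differed from that of the parent cells.

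In the MAP kinase cascade, growth factor receptors load RAS with GTP, and RAS passes the signal through the RAF and MEK kinases to ERK, which phosphorylates targets in the cytoplasm and induces genes in the nucleus. Some of the induced genes are brakes. MAP kinase phosphatases, a group of the dual-specificity phosphatases (DUSP), remove the activating phosphates from ERK, p38 or JNK, and the Sprouty (SPRY) and SPRED proteins act upstream, between the receptor and RAF. Because ERK induces several of these brakes, their transcripts are widely used as a readout of ERK output.

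DUSP6, the cytoplasmic ERK phosphatase, and SPRY4, a Sprouty inhibitor, were the members past 2-fold on the higher side in radiation-adapted cells. DUSP6 was 2.56-fold higher and SPRY4 at least 2.31-fold higher by its brightest probe, since it was not detected in wild type cells. The SPRY4 call was lost without background correction (log2 ratio 0.80) and with the mean over its 4 probes (0.75), and its second probe gave at least 1.08-fold. DUSP5, the nuclear ERK phosphatase, was 1.91-fold higher, and SPRY2, SPRED2 and DUSP1 had smaller positive log2 ratios of 0.44, 0.32 and 0.16. SPRED1 and DUSP2 had negative log2 ratios, and DUSP4 and DUSP7 were not detected on either array.

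Before the values, the sequence before an annotated start is shown for the pair of members past 2-fold. DUSP1, an early response gene whose ratio was close to 0, is added for contrast. The SPRY4 start used lies inside the gene, annotated at chr5:142310430-142325021, and so do the bases shown for it. The 250 bases before an annotated start are given 5′ to 3′, from RefSeq on build GRCh38.p14, and capitals mark matches to the motifs searched.
DUSP6, chr12:89352502-89352751, strand -: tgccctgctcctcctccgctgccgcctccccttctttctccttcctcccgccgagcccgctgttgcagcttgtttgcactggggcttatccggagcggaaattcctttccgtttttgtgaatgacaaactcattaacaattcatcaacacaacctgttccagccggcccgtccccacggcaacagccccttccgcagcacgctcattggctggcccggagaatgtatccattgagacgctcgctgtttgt
SPRY4, chr5:142324248-142324497, strand -: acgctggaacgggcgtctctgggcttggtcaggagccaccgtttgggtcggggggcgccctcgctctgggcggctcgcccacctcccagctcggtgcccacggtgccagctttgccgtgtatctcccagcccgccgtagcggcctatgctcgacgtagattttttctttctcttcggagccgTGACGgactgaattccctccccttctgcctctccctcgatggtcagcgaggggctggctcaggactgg
DUSP1, chr5:172771196-172771445, strand -: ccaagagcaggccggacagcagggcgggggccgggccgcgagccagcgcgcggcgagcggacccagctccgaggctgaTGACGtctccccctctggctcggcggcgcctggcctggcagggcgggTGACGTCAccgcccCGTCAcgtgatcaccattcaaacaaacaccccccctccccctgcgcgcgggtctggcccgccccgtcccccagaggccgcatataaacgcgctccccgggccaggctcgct

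The motifs were searched on both strands in windows from 250 bases before to 50 bases after the start, of which 8 members had 11. They were the cAMP response element TGACGTCA, its half-site TGACG, the AP-1 site TGANTCA, the ETS site CCGGAA and the CArG box bound by serum response factor. The half-site lies within the full element, so a full match also counts as a half-site match. The full element was in the DUSP1 window alone, from position -125 to -118 relative to the start, against 1.85% of all 35116 windows. A half-site was in 4 of the 11 windows, those of DUSP1, SPRED2, SPRY2 and SPRY4, against 24.6% of all. The SPRY4 half-site lay from -68 to -64 relative to its start inside the gene. The AP-1 site was in 1 window (7.71% of all), that of a SPRED2 start inside the gene, and not in the window at the gene's 5′ end. The ETS site was in 1 window, of SPRY2 (17.2% of all). The CArG box was in none of the 11 (1.29% of all), and the DUSP6 window held no match to any of these letters. A match or its absence describes these windows only.

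Both arrays held 47323 probes, with median raw signals of 139.3 on the radiation-adapted array and 137 on the wild type array. A probe counted as detected at a detection p-value under 0.01, which compares its signal with the negative controls of the same array. By this rule 32.5% of probes were detected on the radiation-adapted array and 33.6% on the wild type array, and 10189 genes on at least 1 of them. The Ewing sarcoma markers fitted the label: all 8 with a probe, among them CD99 and NKX2-2, were detected on both arrays, with ratios from -0.68 to 0.58 and summed raw signals of 37160.9 in radiation-adapted and 30440.6 in wild type cells. The largest ratios among them were those of NKX2-2 (-0.68) and BCL11B (0.58). Of 6 fibroblast markers 4 were detected, with summed signals of 1487.5 in radiation-adapted and 1612.8 in wild type cells and 2 on either side of 0: DCN (-0.59), FAP (-0.35), PDGFRB (0.29) and COL3A1 (0.17). EPCAM (-0.18) was the 1 detected epithelial marker of 6, at 187.9 in radiation-adapted and 190.5 in wild type cells, and EMCN (-0.01) the 1 endothelial marker of 6, at 215.5 in radiation-adapted and 207.6 in wild type cells. Of 5 leukocyte markers 2 were detected, both in wild type cells alone, with summed signals of 301.0 in radiation-adapted and 345.8 in wild type cells: CORO1A was at least 1.43-fold and LYZ at least 1.11-fold lower in radiation-adapted cells. The part of these markers in the results was not tested. COL1A1, CDH1, KRT8, PTPRC, CD3E, PECAM1 and VWF were not detected on either array. Probes for the 18S, 28S and 5S ribosomal RNAs were 4.55-fold, 4.16-fold and 4.46-fold higher in the radiation-adapted sample, which moves with the results below, and its part in them was not tested. ACTB (-0.07) and GAPDH (-0.09) had log2 ratios near 0.

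Values below are raw signals as deposited, normalized log2 signals, and log2 ratios of radiation-adapted minus wild type. A gene is represented by its brightest probe. With no replicates, further probes of a gene on the same arrays are the only repeat. Over 2567 genes with several detected probes, the log2 ratios of the 2 brightest had differences with an SD of 0.47. This corresponds to an SD of 0.33 for the ratio of a single probe. Over the 856 of these genes whose dimmer probe had a mean log2 signal of at most 6.59, these SDs were 0.61 and 0.43. Differences between isoforms are part of this spread, and the spread between cultures is not.

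**Figure D1:**
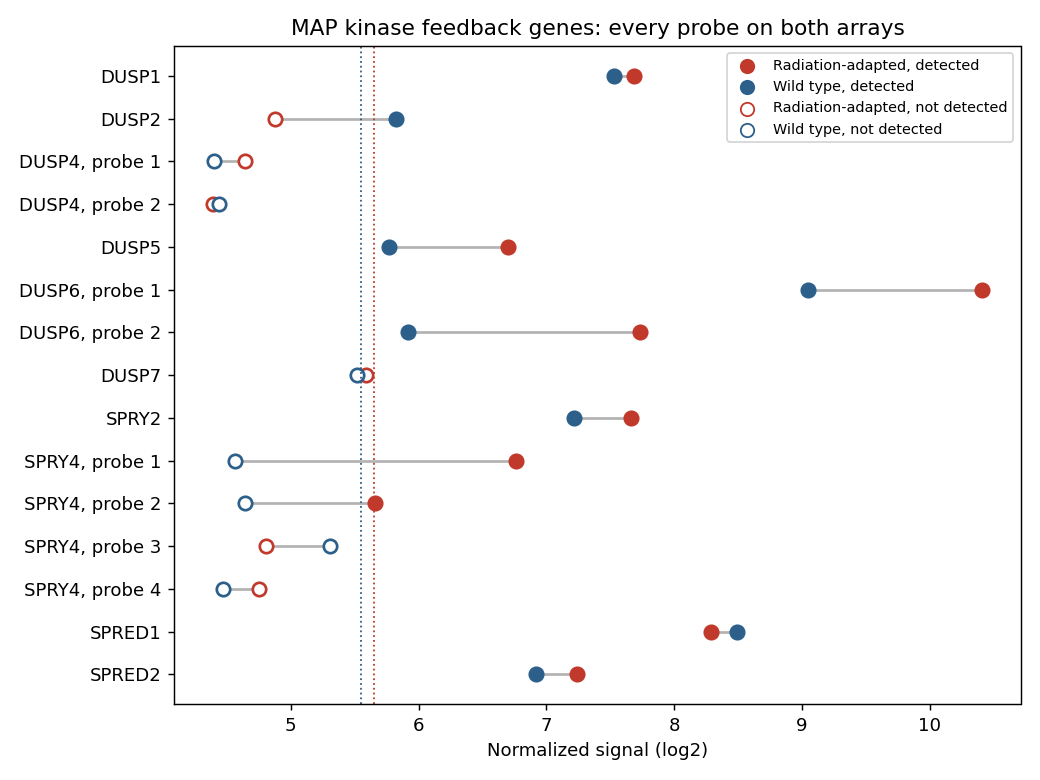
Normalized log2 signal (x axis) of all 15 probes of the 10 genes on the radiation-adapted array (red) and the wild type array (blue), joined by a line for each probe. Open circles were not detected, and dotted lines mark the lowest detected signal of each array (5.65 on the radiation-adapted and 5.55 on the wild type array). Both DUSP6 probes are well apart between the arrays, and the 2 brightest SPRY4 probes are detected on the radiation-adapted array alone.

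Of the phosphatases, DUSP6 had the largest measured ratio, except with the authors' processed values, where it was 1.38 and DUSP2, near background, was -1.41. Its brighter probe had a raw signal of 1485.3 in radiation-adapted and 635.5 in wild type cells, or 10.41 and 9.05 on the normalized log2 scale. Its second probe had a raw signal of 331.5 in radiation-adapted and 169.4 in wild type cells, or 7.73 and 5.92 after normalization. Both probes were detected on both arrays and both were higher in the radiation-adapted cells. Their log2 ratios, 1.36 and 1.81, differed by 0.46, about the spread between probes of a gene. The annotation pairs the brighter probe with NM_022652 and the other with NM_001946, different DUSP6 transcripts. The ratio of the brighter probe ranked 159th from the highest among the 10189 detected genes.

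DUSP5 had a raw signal of 219.9 in radiation-adapted and 164.0 in wild type cells, detected on both. Its normalized log2 signals of 6.70 and 5.77 gave a ratio of 0.93, just short of 2-fold. For dim genes the SD was 0.61 for the difference of 2 probes and 0.43 for a single probe. DUSP5 has 1 probe, and 4.92% of detected genes had a higher ratio. The wild type signal stood close to the detection limit, so the size depended on the background step: the ratio was 0.38 without background correction and 1.16 with the authors' processed values.

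DUSP1, a nuclear phosphatase of p38, JNK and ERK that is induced within minutes by growth factors and stress, had raw signals of 326.0 in radiation-adapted and 289.9 in wild type cells. Its ratio of 0.16 was within the spread between probes, and 32.0% of detected genes had a higher one. DUSP2, a nuclear phosphatase best known from lymphocytes, had a raw signal of 140.1 in radiation-adapted cells, where it was not detected (detection p-value 0.11948), and 165.8 in wild type cells (0.0039). Its measured ratio of -0.94 came from dim signals, and with the radiation-adapted signal set at the detection limit it was at least 1.12-fold lower.

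DUSP4, a nuclear relative of DUSP1, was below the detection limit with both probes. Their raw signals were 131.3 and 117.0 in radiation-adapted cells and 116.3 and 118.9 in wild type cells, among the negative controls. DUSP7, a cytoplasmic relative of DUSP6, stood just under the limit on both arrays, with a raw signal of 162.4 in radiation-adapted cells (detection p-value 0.01039) and 155.8 in wild type cells (0.01169). Its measured ratio of 0.07 was close to 0. No fold is given for either gene.

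The Sprouty proteins are membrane-associated inhibitors of receptor signalling to RAS and RAF. SPRY4 was measured by 4 probes. The brightest had a raw signal of 225.3 in radiation-adapted cells (detection p-value 0) and 126.2 in wild type cells, where it was not detected (0.5026). The second had 164.9 in radiation-adapted cells (0.00909) and 129.3 in wild type cells (0.37273). Both were thus detected in the radiation-adapted cells alone, the second barely.

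The bound for SPRY4 was at least 2.31-fold by its brightest probe and at least 1.08-fold by the second. The other 2 SPRY4 probes were not detected on either array, with raw signals of 137.9 and 135.6 in radiation-adapted cells and 149.8 and 121.1 in wild type cells. Over the 4 probes the measured log2 ratios were 2.20, 1.03, -0.49 and 0.28. The call of SPRY4 as 2-fold higher therefore rests on its brightest probe.

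SPRY2 had raw signals of 321.7 in radiation-adapted and 255.4 in wild type cells, and 7.66 and 7.22 after normalization. Its ratio of 0.44 was above the SD of 0.33 for a single probe and under the SD of 0.47 for the difference of 2, both over all brightnesses. For genes of like brightness, with a dimmer probe at a mean log2 signal of 6.60 to 8.15, these SDs were 0.29 and 0.41. The ratio was above both, and neither holds the spread between cultures. A higher ratio was found for 17.3% of detected genes.

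The SPRED proteins share the Sprouty domain, and SPRED1 is known to bring the RAS inhibitor neurofibromin to the membrane. SPRED1 had raw signals of 434.5 in radiation-adapted and 463.2 in wild type cells, a ratio of -0.20. SPRED2 had 268.8 in radiation-adapted and 228.2 in wild type cells, a ratio of 0.32. Each has 1 probe, was detected on both arrays and had a ratio within the SD of 0.33 for a single probe over all brightnesses, SPRED2 at its edge. For genes of like brightness the single-probe SD was 0.23 for SPRED1 and 0.29 for SPRED2. The SPRED1 ratio was within its SD in size, and the SPRED2 ratio was just above its own.

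By measured ratio, 2 of the 8 detected members were higher by 2-fold or more in radiation-adapted cells, as were 4.02% of all detected genes, and 0 were lower by 2-fold or more, as were 2.07%. At 1.5-fold, 3 were higher, as were 12.5% of detected genes, and 1, DUSP2, was lower, as were 9.59%. A ratio above 0 was found for 6 of the 8, and for 46.6% of detected genes. At the bounds, DUSP6 and SPRY4 were again the members past 2-fold, against 2.93% of detected genes higher and 1.37% lower. Without background correction DUSP6 alone was, against 1.06% higher and 0.275% lower. SPRY4 counted as detected only through the array where it was high. Over all 10 members, detected or not, 8 had a ratio above 0 and the median was 0.28, beside 48.6% above 0 and a median of -0.01 over all 20046 genes. Of the 6 members detected on both arrays, 5 were above 0 with a median of 0.38, beside 46.9% and -0.03 over the 9144 genes detected on both.

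**Figure D2:**
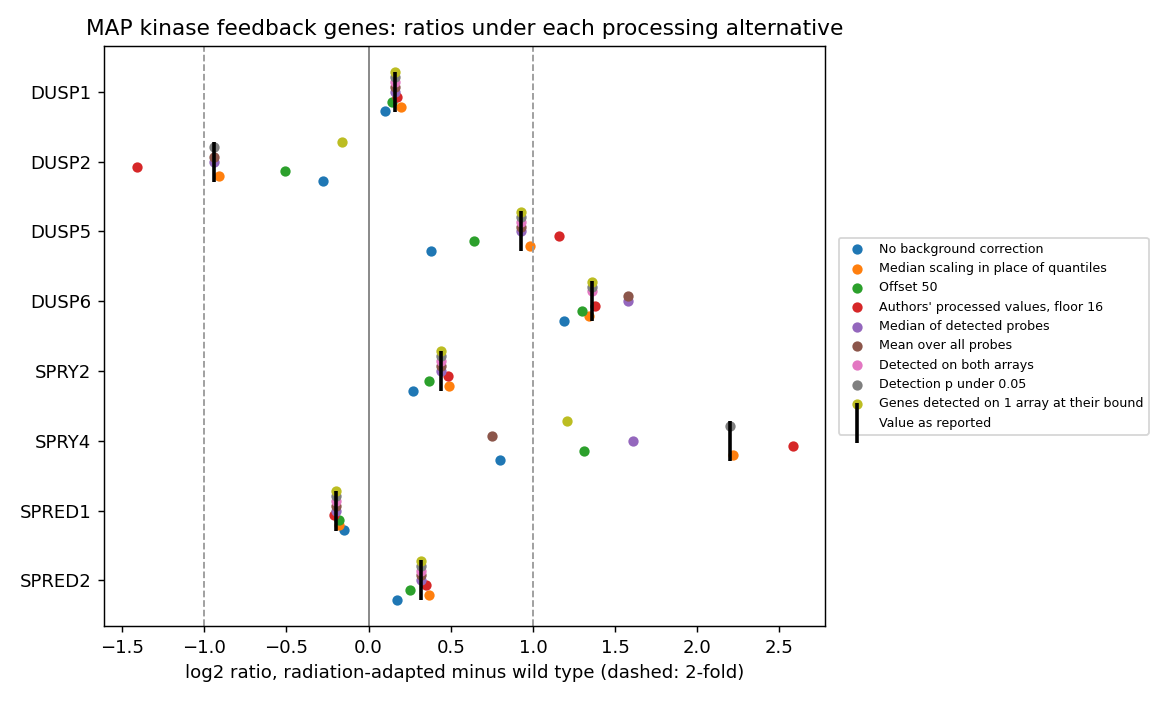
The log2 ratio, radiation-adapted minus wild type (x axis), of the 8 detected genes as reported (black bar) and under 9 processing alternatives (points). Dashed lines mark 2-fold. DUSP6 keeps to a range of 1.19 to 1.58, past 2-fold throughout, while SPRY4 runs from 0.75 to 2.58 and DUSP2 from -1.41 to -0.16.

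DUSP6 stayed past 2-fold under all 9 of these alternatives, with ratios from 1.19 to 1.58. The changed detection rules and the bounds could not move its ratio, since it was detected on both arrays. Nor could the probe summaries move a member with 1 probe, so the 9 are not equal checks. The sign of every detected member was the same under each of the 9 that included it. The sizes of the dim members SPRY4, DUSP2 and DUSP5 moved most.

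Other inhibitors of the pathway were read from a list of 10 genes, all with a probe. Of the 5 detected, 2 were at least 2-fold higher and none lower by that size, with a median of -0.14. Beside the counts of this list and those below stand the shares of all detected genes, 4.02% higher and 2.07% lower by 2-fold. IL17RD, also called SEF, an antagonist of FGF receptor signalling, had raw signals of 1473.9 in radiation-adapted and 648.2 in wild type cells and was 2.48-fold higher, with 2 further probes not detected. LRIG1, which promotes the breakdown of receptor kinases, had 1171.4 in radiation-adapted and 524.2 in wild type cells and was 2.50-fold higher, with its second probe 2.08-fold higher. DUSP9 (-0.20), DUSP16 (at least 1.45-fold lower) and the EGF receptor inhibitor gene ERRFI1 (-0.14) lay under 2-fold. SPRY1, SPRY3, SPRED3, DUSP8 and DUSP10 were not detected.

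Genes that ERK induces outside the feedback group were detected for 9 of 14, with 3 at least 2-fold higher, 0 at least 2-fold lower, 6 above 0 and a median of 0.26. FOS was 6.30-fold and EGR1 4.76-fold higher, both immediate early transcription factors with 1 probe each. FOS had raw signals of 621.2 in radiation-adapted and 187.9 in wild type cells, a raw ratio of 3.31. EGR1 had 1090.9 in radiation-adapted and 308.3 in wild type cells, a raw ratio of 3.54. The sizes after background correction are thus larger than those of the raw signals. ETV5, an ETS factor downstream of FGF signalling, had raw signals of 832.3 in radiation-adapted and 436.2 in wild type cells and was 2.15-fold higher, with a second probe 1.72-fold higher. CCND1 (0.48), IER3 (0.26), EPHA2 (0.22), MYC (-0.04), IER2 (-0.17) and EPHA4 (-0.62) lay under 2-fold. ETV1, ETV4, FOSL1, EGR3 and PHLDA1 were not detected.

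**Figure D3:**
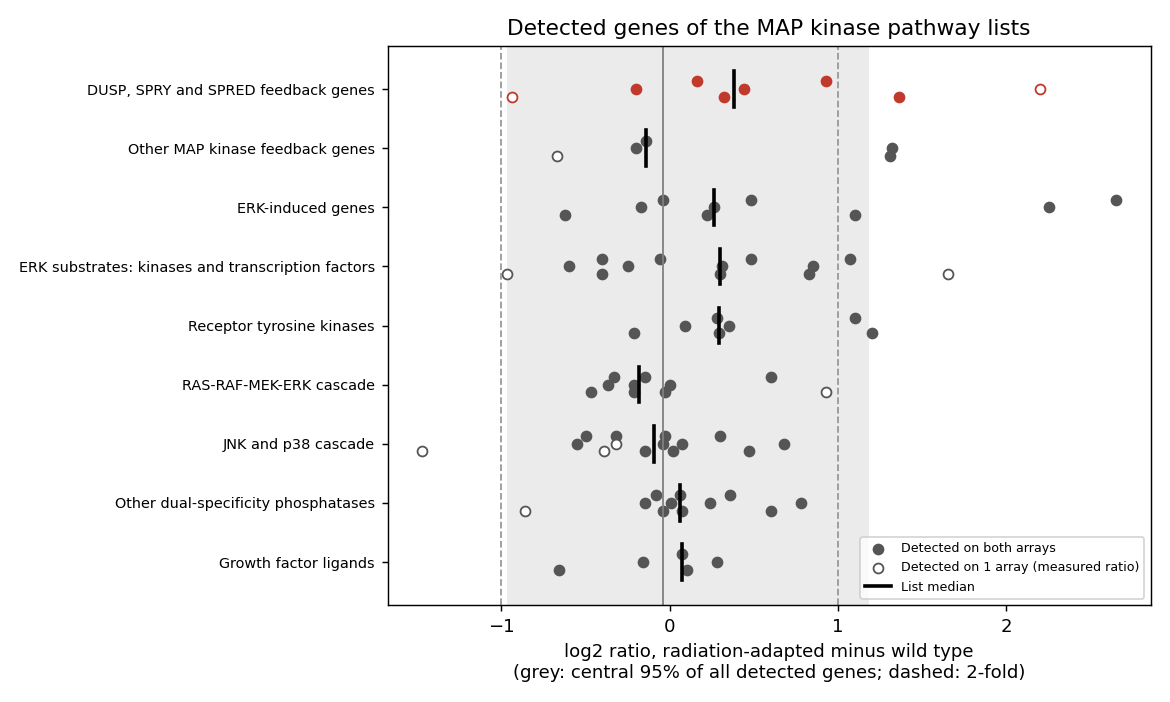
The log2 ratio, radiation-adapted minus wild type (x axis), of each detected gene in the feedback group (red) and in 8 other lists of the pathway (grey), with list medians as black bars. Open circles were detected on 1 array, the grey band holds the central 95% of all detected genes (-0.96 to 1.18) and dashed lines mark 2-fold. The cascade's own genes, the other dual-specificity phosphatases and the growth factor ligands all lie inside the dashed lines. The row order was chosen, and each of the upper 5 rows has genes past 2-fold on the higher side.

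Of the genes of the cascade itself, from adaptors to ERK, 10 of 13 with a probe were detected. None of the 10 was at 2-fold in either direction, a count near the background of 4.02% of detected genes higher and 2.07% lower, and 3 were above 0 with a median of -0.18. MAPK3, which encodes ERK1, had raw signals of 998.3 in radiation-adapted and 980.0 in wild type cells, and its 2 probes had log2 ratios of 0.00 and 0.11. MAP2K1 (-0.15), MAP2K2 (-0.47), ARAF (-0.21), HRAS (-0.37) and GRB2 (-0.21) had small negative ratios. The adaptor gene SHC1 (0.60) and the RAS activator gene SOS2 (at least 1.28-fold higher) had the largest positive ones. Of 4 RAS GTPase-activating proteins, RASA3 alone was detected, at least 1.41-fold higher. Genes of the lists with no probe under their symbol were not analysed here.

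Among 14 kinases and transcription factors that ERK phosphorylates or that lie downstream, 13 were detected, with 2 higher and 0 lower by 2-fold or more, 7 above and 6 below 0, and a median of 0.30. RPS6KA2, a ribosomal S6 kinase, had raw signals of 245.8 in radiation-adapted and 151.2 in wild type cells, where it was not detected, and was at least 2.74-fold higher by 1 of its 3 probes. CREB1 was 2.10-fold higher by its brightest probe, but its other detected probes had ratios of 0.42, -0.27 and -0.96, so its direction is uncertain. SRF (0.85) and ETS2 (0.83) had positive ratios under 2-fold. RPS6KA1 (-0.60), RPS6KA3 (-0.40) and ETS1 (-0.40) had negative ones, and ELK3, not detected in radiation-adapted cells, was at least 1.05-fold lower (measured ratio -0.97).

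Receptor tyrosine kinases were detected for 7 of 14 genes, with 2 at least 2-fold higher and a median of 0.29. DDR1, a collagen receptor, had raw signals of 524.7 in radiation-adapted and 282.5 in wild type cells and was 2.29-fold higher. FGFR4, a receptor for FGFs, had 218.7 in radiation-adapted and 157.8 in wild type cells and was 2.14-fold higher. The FGFR4 signal in wild type cells stood close to the detection limit (detection p-value 0.00779), and the ratio of its raw signals was 1.39. A second probe of each was detected in radiation-adapted cells alone, at least 1.08-fold higher for DDR1 and at least 1.14-fold for FGFR4. FGFR3 (0.09), KIT (-0.21) and ERBB2 (0.35) lay under 2-fold, and EGFR, IGF1R, FGFR1 and FGFR2 were not detected.

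In the JNK and p38 branches, which DUSP1 and DUSP4 also restrain, all 14 genes with a probe were detected. MAPK11, a p38 kinase gene, had raw signals of 154.2 in radiation-adapted cells, where it was not detected, and 220.6 in wild type cells. By this probe MAPK11 was at least 2.25-fold lower, and its second probe was not detected on either array (measured ratio -0.45). MAPK11 was the 1 gene of the 14 at 2-fold, beside 2.07% of all detected genes lower by that size, and the list median was -0.10. JUN had a ratio of 0.47.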

How the data were processed

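Total RNA was extracted with Trizol and made into biotin-labelled cRNA, per the labels' protocols. The authors deposited, per the file headers, an average signal intensity for each probe, not normalized, and a detection p-value; the scanner and its software were not given in the sources used here. They also deposited processed intensity values of unstated making. These had sorted columns equal within 0.2, some values below 0 and the probe order of the raw signals (Spearman 0.999997 and 0.999998), so they were read as linear, background-subtracted and quantile-normalized, and used as an alternative only.

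Raw signals were background-corrected from the detection p-values, quantile-normalized and put on the log2 scale with neqc of limma 3.58.1 in R 4.3.3. The offset of 16 makes folds of dim genes smaller. Later steps used Python 3.11.15, pandas 2.3.3, NumPy 2.4.6 and matplotlib 3.10.9. Of 47323 probes, 30113 had 1 gene symbol in the platform annotation, 8 several and 17202 none here; symbols were updated through a RefSeq table of GRCh38.p14. For a gene undetected on 1 array, "at least N-fold" is the detected signal over the higher of the other array's lowest detected signal and its own, with no allowance for measurement error. Without replicates, genes were counted by size and no test was made; the number of arrays limits the precision. The normalization was tested on simulated arrays with known folds, and the outcome is not reported here.

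The genes and lists were chosen with earlier results of these data known. Beside the 10 feedback genes, the rule named the largest ratios of each list (as many as 4 past 2-fold, otherwise 2) and FOS, EGR1, MAPK3, ACTB and GAPDH; some genes that the rule takes are not reported here, and other list genes were named after their values were seen. Genes of like pattern were not sought, since a pair of arrays gives 1 ratio per gene.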

Additional observations from a re-analysis of the deposited data

How the results depend on the processing

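Under all 9 alternatives that give a ratio, the median ratio of the detected members stayed above 0 (0.22 to 0.43) and DUSP6 stayed past 2-fold. The changed detection rules and the bounds could not move the DUSP6 ratio. The count of members at least 2-fold higher, 2 as reported, was 1 without background correction, 1 with the mean over all probes and 1 over genes detected on both arrays, which leaves out SPRY4 by construction; with the authors' processed values it was 3, DUSP5 being added. The count at least 2-fold lower, 0 as reported, was 1 with the authors' processed values and 1 at a 1.5-fold rule, DUSP2 in each case. Over all genes, 410 were at least 2-fold higher and 211 lower as reported, against 108 and 28 without background correction, 212 and 70 with an offset of 50, 631 and 467 with the authors' values, 273 and 141 with the mean over all probes, 253 and 125 over genes detected on both arrays, and 1272 and 977 at 1.5-fold. At the bounds the counts were 299 and 140. Median scaling moved the median of all genes by under 0.1. Signals close to background limit SPRY4, DUSP2, DUSP4, DUSP5 and DUSP7. No paired analysis was possible because each line had 1 array.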

Other observations

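The dual-specificity phosphatases outside the feedback group, several of which do not act mainly on MAP kinases, were detected for 11 of 12 genes with a probe. None was at 2-fold in either direction, a count near the background of 4.02% of detected genes higher and 2.07% lower. Of the 11, 7 were above 0 and the median was 0.06. DUSP19 had raw signals of 2187.7 in radiation-adapted and 1283.6 in wild type cells, a ratio of 0.78. DUSP15 was not detected in radiation-adapted cells and was at least 1.47-fold lower there. DUSP3, which acts on ERK and JNK, had a ratio of 0.60. By their brightest probes, DUSP11, DUSP12, DUSP14, DUSP22 and DUSP26 lay between -0.08 and 0.07. Other detected probes had ratios of 0.52 and -0.17 for DUSP22 and 0.23 for DUSP11.

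Growth factor ligand genes were detected for 5 of 11 with a probe, none at 2-fold, with a median of 0.07. That count, too, is near the background of 4.02% higher and 2.07% lower. PDGFC had raw signals of 352.3 in radiation-adapted and 471.6 in wild type cells, a ratio of -0.66. NRG1 had a ratio of 0.28 with its brightest probe and -0.56 with another detected one. FGF2, FGF9, HBEGF and EREG were not detected on either array.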
